A study of Mus musculus with 15 samples.

Results

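Chromosome 7 was the autosome with the lowest mean coverage in 15 GAM libraries that the submitters set apart as failing quality control, and it is described here between its ends. GAM, genome architecture mapping, cuts thin slices through nuclei, and the DNA found in a slice, the nuclear profile, shows which loci lay together in it. Each library held 1 nuclear profile from the mouse embryonic stem cell line 46C (labelled 46C-ES, strain 129/Ola), grown with serum and LIF and moved to serum-free medium for the day before harvest, and all 15 shared this condition with no treatment or control group. The members were the 40 kb windows of chromosome 7 that start at 8 Mb or later, without the last 125 windows, which gave 3489 windows (8000001 to 147560000 in mm9) of the 68162 windows of the whole table. The other 18 autosomes, trimmed the same way, gave 52152 windows. The chromosome was chosen by its mean coverage over these 15 libraries, the lowest of the autosomes, so its coverage, its rank and its contrast with the other autosomes are described without a test.

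Each chromosome of an interphase nucleus fills its own territory, so a thin slice meets some territories, passes others by and usually takes in only pieces of those it meets. A slice therefore covers a chromosome in patches, and a chromosome it misses has no positive windows. Mouse chromosome 7 carries its centromere at the proximal end. It is known for imprinted domains, such as the one around Snrpn and Ube3a, and for large clusters of olfactory receptor, vomeronasal receptor, kallikrein and zinc finger genes. In GC content and gene share it was not an extreme chromosome. Its mean GC content of 42.9% was the third highest of the 19 autosomes, which ranged from 40.5% to 43.5%, and 59.6% of its windows overlapped a protein-coding gene, against a median of 53.3% over the other 18.

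The sequences below come from the places on chromosome 7 where calls were most shared or most continuous. Each is the middle 200 bases of its window or stretch in the mm9 reference (plus strand), shown as a short sample. Capitals mark CG dinucleotides. The first lies in the only window positive in 3 libraries, and the others lie in 5 of the 6 longest stretches of adjacent positive windows (tied at 4 windows, the last named because of the tie after its values were seen). The stretch not shown contains that window.
Window shared by f13a6, f13g2 and f13g3, chr7:47259901-47260100: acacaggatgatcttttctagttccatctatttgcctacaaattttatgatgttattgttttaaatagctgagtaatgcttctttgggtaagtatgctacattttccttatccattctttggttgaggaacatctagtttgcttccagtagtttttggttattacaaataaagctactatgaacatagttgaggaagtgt
Stretch in f14g4, chr7:12279901-12280100: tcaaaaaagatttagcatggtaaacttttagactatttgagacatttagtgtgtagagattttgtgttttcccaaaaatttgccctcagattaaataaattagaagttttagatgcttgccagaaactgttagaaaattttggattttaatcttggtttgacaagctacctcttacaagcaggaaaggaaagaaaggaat
Stretch in f13a6, chr7:37759901-37760100: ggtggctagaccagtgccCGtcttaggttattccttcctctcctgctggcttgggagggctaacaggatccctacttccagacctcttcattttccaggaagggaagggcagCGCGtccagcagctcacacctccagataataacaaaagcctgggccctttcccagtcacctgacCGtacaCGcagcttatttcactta
Stretch in f13g3, chr7:47439901-47440100: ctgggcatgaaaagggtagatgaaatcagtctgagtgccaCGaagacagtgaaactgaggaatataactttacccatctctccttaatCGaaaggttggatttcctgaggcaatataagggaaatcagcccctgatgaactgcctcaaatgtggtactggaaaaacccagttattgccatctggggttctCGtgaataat
Stretch in f14c2, chr7:80839901-80840100: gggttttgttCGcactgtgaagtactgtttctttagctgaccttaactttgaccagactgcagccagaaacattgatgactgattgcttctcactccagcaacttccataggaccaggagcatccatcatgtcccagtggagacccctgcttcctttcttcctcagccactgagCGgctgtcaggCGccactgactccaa
Second stretch in f13g3, chr7:134719901-134720100: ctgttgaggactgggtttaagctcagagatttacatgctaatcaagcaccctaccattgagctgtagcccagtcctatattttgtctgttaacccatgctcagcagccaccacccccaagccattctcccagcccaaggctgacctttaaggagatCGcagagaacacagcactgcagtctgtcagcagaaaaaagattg
The shared window had no CG in these bases and a GC content of 32.5% in them, and the f14g4 stretch was alike at 31.0%. The f13a6 stretch held 5 CG dinucleotides and 54.0% GC. The middle bases of these places thus ran from 31.0% to 54.0% GC. In full, the shared window had 40.4% GC, and the stretches shown ran from 38.7% (f14g4) to 45.9% (the second in f13g3). The 200 bases therefore do not give the composition of a whole window or stretch.

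Coverage is the percentage of windows called present in a library, and the table gives no read depth, so a window without a call was not shown to be absent from the slice. Coverage of chromosome 7 was 0.642% ± 0.885 (SD, n = 15), and that of the other 18 autosomes, pooled, was 1.65% ± 1.58 (SD, n = 15). Over libraries, coverage of chromosome 7 ran from 0% through a median of 0.373% to 2.92%. On chromosome 7, 204 of the 3489 windows hold unknown bases in the reference. With such windows left out, its mean was 0.682%, against 1.61% for all 19 autosomes treated alike. The next lowest autosomes were chromosome 16 with a mean of 0.903% and chromosome 10 with 0.923%, and the highest was chromosome 2 with 2.25%. Chromosome 5, which has the same number of windows, 3489, after trimming, had a mean of 1.84% and 961 calls, against 336 calls on chromosome 7. In all, 315 windows of chromosome 7, or 9.03%, were positive in at least 1 library, against 21.4% of the windows of all 19 autosomes. The label of lowest coverage held for the mean and not for the median. Ordered by the median over libraries, chromosome 7 ranked 12 from the bottom, and chromosome 10 was lowest with 0.0342%. Without library f13g3, chromosome 10 was also lowest by the mean, with 0.564% against 0.583% for chromosome 7.

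**Figure D1:**
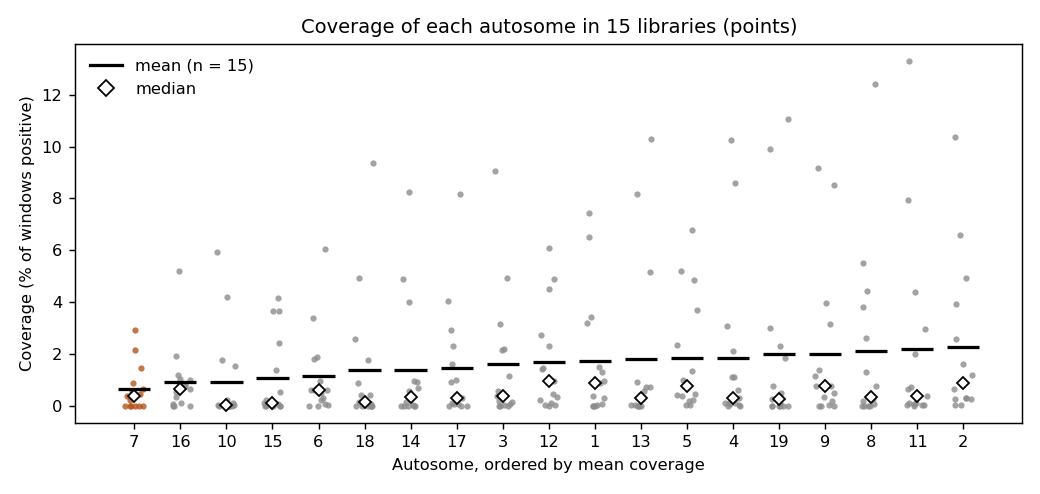
Coverage of each autosome between its trimmed ends (percentage of 40 kb windows called positive, linear axis), with 1 point for each of 15 libraries, the mean as a bar and the median as a diamond. Chromosome 7 has the lowest mean, 0.642%, and its highest point, 2.92%, is below the highest point of every other autosome, while its median of 0.373% lies among those of the others.

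In the distribution over libraries, the upper end of chromosome 7 was the lowest of the autosomes. The best covered library of chromosome 7, f13a6, reached 2.92%. The best covered library of each other autosome lay between 4.15% (chromosome 15) and 13.3% (chromosome 11), with a median of 8.65%. A low upper end follows in part from the choice by the mean of these values, so it cannot be read as a separate trait. The lower end was shared with some other autosomes. Chromosome 7 had no positive window in 6 of the 15 libraries (40%), against 21.9% of the 270 pairs of a library with another autosome. The median over the other 18 autosomes was 3 libraries without a call. However, 3 other autosomes were also without calls in 6 libraries, and chromosome 10 in 7.

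The libraries ran from those with no call on chromosome 7 to f13e3 and f14b5, which had more coverage there than on the other autosomes. Libraries f13d5, f13e5, f14e1, f14e5, f14f2 and f14g3 had 0 positive windows. Of these, f13e5 and f14f2 were well covered elsewhere, with 2.08% and 2.01% of the windows of the other autosomes, and they had no call on 3 and 4 of the 19 autosomes. The other libraries without calls had little coverage anywhere, from 0.0211% (f13d5) to 0.378% (f14e5) on the other autosomes.
Library f13a6 had 102 positive windows on chromosome 7, with 2.92% coverage there and 2.96% on the other autosomes. Library f14c2 had 75, with 2.15% against 2.94%. These 2 libraries gave 177 of the 336 calls, or 52.7%. Next came f13g3 with 51 windows (1.46% against 4.52%), f13g2 with 30 (0.860% against 1.05%), f13e3 with 23 (0.659% against 0.355%), f14b5 with 19 (0.545% against 0.407%), f14g4 with 15 (0.430% against 2.54%), f13e1 with 13 (0.373% against 4.65%) and f14g6 with 8 (0.229% against 0.535%). Only f13e3 and f14b5 had higher coverage on chromosome 7 than elsewhere, and both had under 1% coverage of the autosomes.
In percentage points, the shortfall came mostly from well covered libraries, since a library with little coverage elsewhere can add little to such a sum. Of the summed difference between chromosome 7 and the other autosomes, 89.2% came from the 5 libraries with the largest differences. These were f13e1, f13g3, f14g4, f13e5 and f14f2, each with over 2% coverage elsewhere. Library f13e1 had the highest coverage of the other autosomes of all 15 libraries and alone gave 28.2% of the summed difference.

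**Figure D2:**
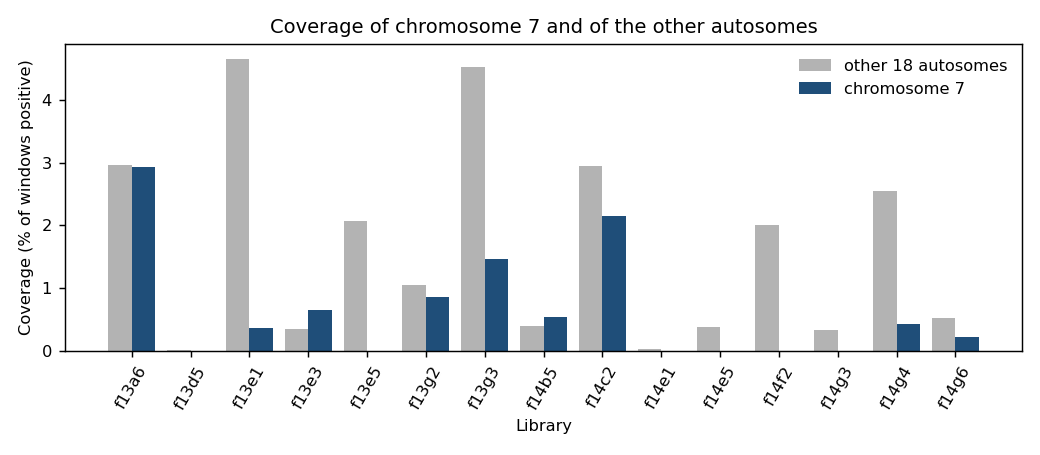
Coverage of chromosome 7 (blue bars) and of the other 18 autosomes pooled (grey bars) in each of 15 libraries, as percentage of 40 kb windows called positive. Bars for chromosome 7 are far below the grey ones in f13e1, f13e5, f13g3, f14f2 and f14g4, and nearly level in f13a6 at 2.92% and 2.96%.

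The labels split the libraries only by a name prefix, f13 for 7 and f14 for 8, and do not state its meaning. Coverage of chromosome 7 was 0.897% ± 1.03 (SD, n = 7) in f13 and 0.419% ± 0.732 (SD, n = 8) in f14 libraries, a difference of 0.478 points that is given without a test, since these values chose the chromosome. It was 0.140 points without f13a6 and 0.725 without f14c2. Nothing in the labels says whether libraries came from separate cultures, so p-values over libraries measure the spread between slices.

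Low coverage extended along nearly the whole chromosome. In bins of 5 Mb, 27 of the 28 bins lay below the mean of the 19 autosomes, 1.59%, against 55.8% of all autosomal bins. This share, 96.4%, compares with 22.7% to 88.2% on the other autosomes. The median bin of chromosome 7 had 0.453% and the median bin of the other autosomes 1.52%, and 20 of the 28 bins lay under the lower quartile of the other bins, 0.947%. No bin was empty. Each had calls from 1 to 6 libraries, with a median of 3. When libraries were left out in turn, 24 to 27 bins lay below the mean. Without both f13a6 and f14c2 the count was 28 of 28. Those libraries gave most of the calls here and were picked after seeing the data, so this run adds no support. All these counts come from the coverage that chose the chromosome.

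Within that low level the calls lay in patches. The fullest bin, from 13 to 18 Mb, had a mean of 1.81% ± 3.60 (SD, n = 15) and was the only one above the autosomal mean. It had 34 calls from 6 libraries, 17 of them from f13a6. This stretch of the chromosome holds part of the vomeronasal receptor and Sult2a sulfotransferase genes, along with Crx, a transcription factor of photoreceptors, and Lig1, a DNA ligase of replication, and 33 of the 88 protein-coding genes wholly inside it overlapped a positive window. Over all members 248 of 1816 did, or 13.7%, and the bin was picked for its calls. Next came the bin from 43 to 48 Mb with 1.55% ± 3.70 (SD, n = 15) and the last bin, from 143 to 147.56 Mb, with 1.40% ± 3.85 (SD, n = 15). In the last bin f14c2 had 17 of the 24 calls, and the covered genes included Mgmt, a DNA repair methyltransferase, and Ebf3, a transcription factor.
The emptiest bins lay in 2 places. From 53 to 58 Mb there was 1 call among 15 libraries, in f13g3, with a mean of 0.0533%. This bin has 60 protein-coding genes wholly inside it, among them Myod1, the muscle determination factor, the Saa genes for serum amyloid A, and the Mrgpr receptor genes of sensory neurons. From 63 to 68 Mb there were 2 calls (0.107%), in f13a6 and f14b5, in a bin that holds Ube3a, Snrpn and Herc2, a ubiquitin ligase gene. From 93 to 98 Mb there were also 2 calls, both in f14b5, in a bin that holds Tyr, the tyrosinase of pigment synthesis, and Ctsc, a lysosomal protease gene and the only one of its 45 protein-coding genes with a call. From 53 to 68 Mb, 375 windows had 8 calls from 4 libraries. A bin mean here rested on few libraries. In 19 of the 28 bins a single library had over 50% of the calls, and in 5 bins it had all of them.

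**Figure D3:**
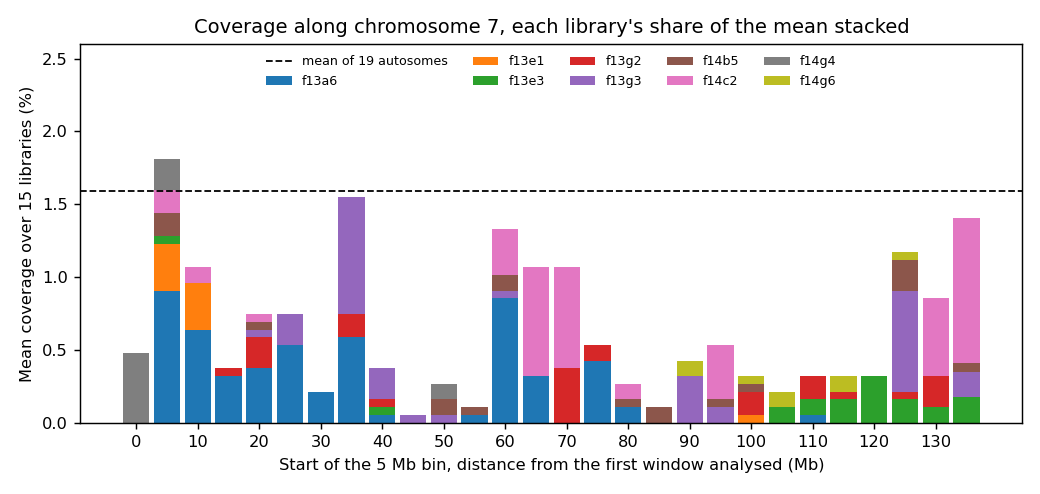
Mean coverage of chromosome 7 over 15 libraries (percent) in 5 Mb bins, placed by distance from the first window analysed, with each library's contribution stacked by colour and the mean of the 19 autosomes, 1.59%, as a dashed line. A single bin, the second, rises above the line, at 1.81%, and f13a6, f13g3 or f14c2 gave the most calls in each of the 3 tallest bars.

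Libraries differed in which part of the chromosome they had. In f13a6, 68 of 102 calls lay from 8 to 58 Mb and 32 from 68 to 93 Mb, and 1 call lay beyond 98 Mb. In f14c2, 33 of 75 calls lay from 68 to 83 Mb and 27 from 138 to 147.56 Mb. Libraries f14g4 and f13e1 had their few calls close together. Library f14g4 had 13 of its 15 calls from 8 to 18 Mb, and f13e1 had 12 of its 13 from 13 to 23 Mb. By contrast, f13e3 had 21 of its 23 calls from 113 Mb to the end, and the 8 calls of f14g6 all lay between 99.9 and 133.7 Mb. In f14b5 19 calls were spread over 11 bins, none of them adjacent to another.
The split between the proximal and the distal part was not shared by the libraries. Proximal windows, up to 77.76 Mb, had a coverage of 0.730% ± 1.35 and distal ones 0.554% ± 0.802 (SD, n = 15). The proximal part was higher in 4 libraries and lower in 5, and the 6 libraries without a call had a difference of 0 and add nothing to the test. The mean difference was 0.176 percentage points (two-sided exact test by sign flips, p = 0.805, adjusted p = 0.966 over 6 comparisons). Without f13a6, whose own difference was 4.59 points, the sign turned to -0.139.

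**Figure D4:**
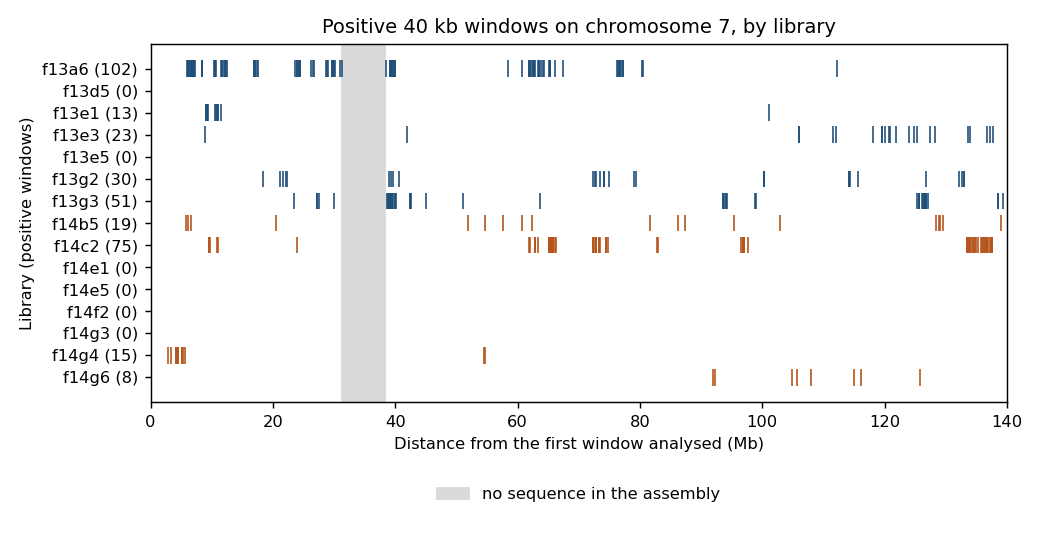
Positive 40 kb windows (ticks) of chromosome 7 in each of 15 libraries, against the distance from the first window analysed in Mb, with f13 libraries in blue, f14 libraries in orange and the number of positive windows in brackets. Calls of f13a6 lie mostly in the left part and the middle, f14g4 and f13e1 have short groups near the left end, f14c2 has its densest group near the right end, and 6 rows are empty. The grey band is the large assembly gap.

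A large assembly gap lies inside the chromosome, and the sequenced windows on its distal side stood out. From 39360001 to 46320000, 174 windows have only unknown bases in the reference, and none had a call. They make up most of the 177 windows of that kind among the members, so the gap touches the bins from 38 to 43 and from 43 to 48 Mb. In the 41 windows without unknown bases from 46.36 to 48 Mb, coverage was 4.72% ± 11.3 (SD, n = 15). This was the highest of any bin when unknown windows were left out, and 26 of 28 bins then lay below the autosomal mean. The value rests on 41 windows, against 125 in a full bin, and a mean over few windows is more easily extreme. The bin was also picked for its calls. All 29 calls there came from 3 libraries, with 15 in f13g3, 11 in f13a6 and 3 in f13g2, and the other 12 libraries had none. In f13g3 this was 36.6% of the windows, against 1.07% of its members outside 43 to 48 Mb. The 33 sequenced windows on the proximal side, from 38 to 39.32 Mb, had 4 calls, all in f13a6. Whether sequence missing from the assembly had a part in these calls was not tested.

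Windows shared between libraries were few. Of the 315 positive windows, 295 were positive in 1 library, 19 in 2 and 1 in 3, so that 0.573% of members were positive in at least 2 libraries, against 2.26% of all autosomal windows. Fewer calls leave fewer windows to share, and the chromosome was chosen for low coverage. The lower share therefore cannot be read as a separate trait. The window positive in 3 libraries, from 47240001 to 47280000, lies in the group beside the gap and holds no annotated gene. The 41 sequenced windows there held 6 of the 20 shared windows, none of them with a protein-coding gene. Library f13a6 took part in 14 of the 20. It shared 5 windows with f14c2, 4 with f13g3, and 2 each with f13g2, f13e1 and f14b5, and 8 of the 105 pairs of libraries shared any.
Among the 8 shared windows with a protein-coding gene, all named after their values were seen, the one from 73160001 to 73200000 lies in Pcsk6, a proprotein convertase, and the one from 70840001 to 70880000 in Otud7a, a deubiquitinase, both positive in f13a6 and f14c2. The window from 141880001 to 141920000 in Dock1, an activator of the GTPase Rac, was positive in f13e3 and f14c2. The window from 19480001 to 19520000, with exons of Nova2 and Ccdc61, was positive in f13a6 and f13e1; Nova2 encodes a neuronal splicing factor.

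Stretches of adjacent positive windows were mostly single windows, on chromosome 7 as on the other autosomes. The 336 calls formed 265 stretches, of which 81.1% were a single window, 35 had 2 windows (13.2%), 9 had 3 (3.40%) and 6 had 4 (2.26%). On the other autosomes the shares were 73.9% for a single window, 17.2% for 2, 4.97% for 3 and 2.09% for 4. The longest on chromosome 7 was therefore 4 windows, or 160 kb, reached in 4 libraries. On each other autosome the longest stretch in any library had at least 5 windows, with a median of 7.5 and a maximum of 14, and 1.77% of their stretches were longer than 4 windows. Every other autosome except chromosome 16, with 289, had more calls than chromosome 7, so the numbers of stretches are unequal.
Of the 6 longest, the f14g4 stretch from 12200001 to 12360000 covers Vmn1r72 and Vmn1r73, receptors for pheromones. The f13g3 stretch from 134640001 to 134800000 is the most gene-rich and covers Srcap, the ATPase of a chromatin remodelling complex, Phkg2, a subunit of phosphorylase kinase, Rnf40, a ubiquitin ligase of histone H2B, and Zfp629. The f14c2 stretch from 80760001 to 80920000 covers Fam174b and A830073O21Rik, with exons of both inside. The other 3, in f13a6 from 37680001 to 37840000 and from 47160001 to 47320000 and in f13g3 from 47360001 to 47520000, hold no protein-coding gene. When stretches were joined over a single window without a call, the longest had 11 windows, in f14c2 from 73080001 to 73520000, with 8 of them positive.
Calls on chromosome 7 had an adjacent positive window in 36.0% of cases, against 48.1% on the other autosomes, pooled over libraries. Library by library there was no such order. Of the 8 libraries with at least 10 calls, 4 had a lower proportion on chromosome 7. It was 0.314 against 0.469 in f13a6, 0.467 against 0.471 in f14c2, 0.549 against 0.537 in f13g3 and 0.615 against 0.603 in f13e1. In the other 4 libraries, f14g4 was higher on chromosome 7 as well, with 0.533 against 0.507, and f13g2, with 0.200 against 0.182, while f13e3 and f14b5 were lower.

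The calls were compared with GC content and genes within the chromosome, which the choice of chromosome did not use. Windows above the median GC content of 42.4% had a coverage of 0.832% ± 1.23 and the others 0.532% ± 0.844 (SD, n = 15). The difference, 0.301 percentage points, was positive in 5 libraries, negative in 4 and 0 in the 6 without a call, and was smaller than the spread over libraries (two-sided exact test by sign flips, p = 0.238, adjusted p = 0.966). It rested on f14c2, with 3.47 points, and was 0.0743 without it. Windows that overlap a protein-coding gene had 0.622% ± 0.804 and those without one 0.671% ± 1.03 (SD, n = 15), a difference of -0.0485 points (two-sided exact test by sign flips, p = 0.676, adjusted p = 0.966), and the sign turned without f13a6, to 0.0224.
Nor did these relations differ detectably from those of the other autosomes. In the 8 libraries with at least 10 calls on chromosome 7, positive windows exceeded all windows in GC content by 0.463 ± 2.01 percentage points there and by 0.0629 ± 0.416 elsewhere (SD, n = 8; two-sided exact test by sign flips, p = 0.602, adjusted p = 0.966). For the share of windows with a protein-coding gene, the excess was 3.03 ± 13.3 points on chromosome 7 and 3.15 ± 3.20 elsewhere (SD, n = 8; two-sided exact test by sign flips, p = 0.992, adjusted p = 0.992). The smallest p that 8 libraries allow is 0.00781. The spread over libraries was over 4 times as wide on chromosome 7, where a library had few windows, so only large differences could have been seen.

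Of the 1816 protein-coding genes inside the members, 248 overlapped a positive window in at least 1 library, or 13.7%, and the gene families of the chromosome are read against that share. Olfactory receptor genes, the largest family with 220 members over 114 windows, had 3 calls in f13e3 and f14b5, and 9 genes were covered. Their windows had a coverage of 0.175% ± 0.492 (SD, n = 15), against 0.642% for all members. Type 2 vomeronasal receptors had 1 call over 64 windows, with 2 of 42 genes covered. Type 1 vomeronasal receptors had 8 of 91 genes covered and a coverage of 0.706% ± 1.98, all from f13a6 and f14g4. Zinc finger genes named Zfp had 15 of 70 genes covered, with 0.928% ± 2.22 from f13a6, f13g3 and f14g4. The Ceacam genes, which encode cell adhesion proteins of the immunoglobulin family, had 8 of 15 genes covered, from f13a6 and f13e1, and 2.67% ± 7.29. No call fell on the 27 kallikrein (Klk), 15 Mrgpr, 14 Cyp2 or 5 beta-globin (Hbb) genes, which span 14, 18, 18 and 2 windows. Of 17 Trim genes Trim72 was covered, and of 4 Siglec genes Siglec5, both in f13g3. No gene with a symbol starting with Scgb was found among the members. The spread between libraries exceeded the mean in each family with calls. Members of a family lie side by side and share slices, and reads from near-identical copies can be hard to place, so these values are uncertain.
Of 8 imprinted genes inside the members, 1 was covered, a share near that of all protein-coding genes. Ube3a, which encodes a ubiquitin ligase, was positive in f13a6, and Snrpn, Ndn, Magel2, Mkrn3, Peg12, Atp10a and Inpp5f had no call in any library, although they span from 1 to 6 windows each. Another 19 of the 28 imprinted genes on the list lie in the trimmed ends. There, Peg3 was positive in f13a6 and f13e1, Zim1 in f13a6 and f14c2 and Usp29 in f13a6, all near the proximal end, and the 16 at the distal end, from H19 and Igf2 to Dhcr7, had no call. Kcnq1ot1 was not found in the annotation by that name. Among the widely studied genes reported inside the members, the growth factor receptor gene Igf1r, over 8 windows, was positive in f13a6, and Fgfr2, which this annotation extends over 76 windows, in f13g2 and f14b5. Apoe, Tgfb1, Akt2, Ryr1, Bax, Pold1, Chd2, Furin, Fes, Blm, Tyr and Hbb-b1 had none.

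Coverage on either side of the limits is given once, without a test. Just outside, the windows from 3000001 to 8000000 had 1.81% ± 3.95 with 34 calls from 3 libraries, 16 of them in f13e1, and just inside, the windows from 8 to 13 Mb had 0.480% ± 1.86 with 9 calls, all in f14g4. At the distal limit the last 125 windows inside had 1.39% ± 3.91 with 26 calls, 19 of them in f14c2, and the 125 windows outside had 0.267% ± 0.837 with 5 calls (SD, n = 15). With the ends included, the mean of chromosome 7 was 0.655% and remained the lowest of the autosomes.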

How the data were processed

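The authors deposited a segregation table for 15 single nuclear profile libraries, in which each 40 kb window of mm9 is 1 where it was called present and 0 where it was not. The submitters' processing notes name Bowtie2 2.1 and mm9. The paper's methods describe removal of PCR duplicates and calling of windows with GAMtools at a fixed read threshold for multiplex-GAM, and whether that applies here is not stated. Read depth is not in the table, so no counting error is given.

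Ends were trimmed alike on all 19 autosomes, whose lengths equalled those of the NCBI Build 37 reference. GC content, unknown bases and genes (GENCODE, same build) came from it. The libraries were 1 group, and no value column was left unused. The 5 tests compared 2 values of each library by exact permutation (sign-flip), two-sided, with a threshold of 0.05. They were also run on simulated data with calls placed independently of one another. The real calls lay in patches, so those runs do not show how the tests behave on such calls. The Benjamini-Hochberg adjustment ran over 6 comparisons, with that between name prefixes, whose p is not given because its values chose the chromosome. Genes named are fixed families, imprinted and landmark lists, genes in the windows positive in most libraries and in the longest stretches, and those of the 3 fullest and 3 emptiest bins. For these bins a few of the genes are named, chosen after their values were seen. One gene of the landmark list is not reported here. The members and lists were chosen with earlier results of these data known. Alternatives covered trimming, unknown bases, bin size, splits, gene set, scale and leaving out libraries. Python 3.11.15, numpy 2.4.6, pandas 2.3.3 and matplotlib 3.10.9 were used.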

Additional observations from a re-analysis of the deposited data

How the results depend on the processing

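Chromosome 7 had the lowest mean coverage under every alternative run except 2: by the median over libraries it ranked 12, and over the 15 fits that each left out 1 library the rank was 1 or 2, with 2 only without f13g3. Mean coverage ranged from 0.479% (without f13a6) to 0.688% in these fits. The share of bins below the autosomal mean ranged from 85.7% to 96.4% in them, and was 83.9% with 2.5 Mb bins and 100% with 10 Mb bins. The longest stretch went from 4 to 11 windows when stretches were joined over 1 window without a call. Divided by each library's autosomal coverage, the mean of chromosome 7 was still the lowest, but narrowly, with 0.445 against 0.472 for the next autosome.

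None of the 5 tests passed 0.05 under any alternative run. With a minimum of 20 positive windows, the comparisons with other autosomes kept 5 libraries. That is too few for this test to reach 0.05, so those runs could not pass and say nothing either way. The difference between windows with and without a protein-coding gene changed sign when divided by each library's coverage (0.126, exact permutation p = 0.711). Leaving out 1 library in turn, the differences ranged from -0.139 to 0.283 percentage points for the proximal against the distal part, from -0.0882 to 0.0224 for genes, from 0.0743 to 0.379 for GC content, from -4.46 to 1.86 for the gene share against other autosomes, from 0.0281 to 0.994 for GC content against other autosomes and from 0.140 to 0.725 for f13 against f14. The gene share against other autosomes turned positive without f13a6 (1.86), f13g2 (0.219), f13g3 (1.01), f14b5 (0.975) or f14c2 (0.405), and the sign of the proximal and of the gene difference turned without f13a6. The cause was not tested. Leaving out f13d5 and f14e1, the 2 libraries with fewest calls, and leaving out both f13a6 and f14c2 were chosen after seeing the data. The 5 tests were paired within each library, and no replicate numbers pair samples across groups, since the libraries form 1 group. With depth unknown, a missing call is no measure of absence.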
